A study of Mus musculus with 13 samples.

Results

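The milk protein genes examined here were Csn1s1, Csn2, Csn1s2a, Csn3, Wap and Lalba, 6 genes that lie in 4 of the 9097 bins of 300 kb for which 5-hydroxymethylcytosine (5hmC) was measured. The bins were taken by position, as those that hold the gene bodies on GRCm38, and 8576 bins with a value above 0 in at least 1 tumour, on the autosomes and X, formed the set against which they were read. The assay was TAB-seq, a TET-assisted bisulfite method after which 5hmC is the form still read as C. It was run at low depth on DNA of 13 breast tumours from FVB mice carrying the PyMT oncogene. Each value is the 5hmC percentage deposited for a bin, and how calls were pooled within it was not stated. The groups were Phd2+/- mice (n = 4) and Phd2+/+ mice (n = 3), all 16 weeks old and not injected, and mice injected hydrodynamically with the plasmid PRRL2-sFlk1 (n = 3) or with empty PRRL2 (n = 3), all 12 weeks old. Every tumour, controls included, carried PyMT. The labels describe tumours of Phd2+/- mice as better vascularised and oxygenated, and those of mice expressing sFlk1, a soluble receptor that binds VEGF, as more hypoxic. Hydrodynamic injection is known to deliver plasmid mainly to the liver. The promoter that drives PyMT is not given in the sources used here. Each sample was 1 tumour with no sorting of cells, and 5hmC in 300 kb bins offers no marker by which the share of epithelium could be checked. A change in the mix of cells and a change in 5hmC per cell therefore cannot be told apart.

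Caseins are the main proteins of mouse milk and assemble into micelles that carry calcium. Csn1s1, Csn2 and Csn1s2a encode calcium-sensitive caseins of the micelle core, and Csn3 encodes kappa-casein, which coats and stabilises it. Wap encodes whey acidic protein, and Lalba encodes alpha-lactalbumin, the subunit that turns a galactosyltransferase into lactose synthase. In the mammary gland these genes are switched on in secretory epithelial cells in pregnancy and lactation, when prolactin acts through its receptor, JAK2 and STAT5 together with glucocorticoid and the epithelial factor ELF5. 5hmC is made from 5-methylcytosine by TET dioxygenases, mostly at CpG, and across tissues it is known to be enriched in the bodies and enhancers of genes that are in use.

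The casein genes lay on chromosome 5. Csn1s1 spanned 87666208 to 87682578, Csn2 87692619 to 87699429 and Csn1s2a 87774450 to 87788798, all within the bin from 87600001 to 87900000, here called the casein bin. Csn3, from 87925579 to 87932550, lay in the next bin, from 87900001 to 88200000. Wap lay on chromosome 11 from 6635483 to 6638654 (bin from 6600001 to 6900000) and Lalba on chromosome 15 from 98480400 to 98482934 (bin from 98400001 to 98700000). A bin value belongs to all of its sequence, which is mostly not the milk gene. Protein-coding gene bodies covered 28.1% of the casein bin, 18.0% of the Csn3 bin, 12.9% of the Wap bin and 44.1% of the Lalba bin. In the casein bin the other protein-coding genes were Csn1s2b, Prr27 and Odam, in the Csn3 bin BC037156, Cabs1, Smr3a and Smr2, and in the Wap bin Tbrg4, Ramp3 and part of Nacad. The Lalba bin held 11 protein-coding genes, among them Kansl2, Ccnt1, Adcy6, Cacnb3, Ddx23 and Rnd1, which are not milk genes.

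The promoters are shown because CpG is where 5hmC can be made and because STAT5 is known to bind the spaced repeat TTCNNNGAA. Each line gives the 250 bases before the transcript start that the table uses, 5′ to 3′ on the strand of the gene, from RefSeq promoters of GRCm38.p6, with CpG and TTCNNNGAA in capitals. Of the 6 genes 5 matched the table. The start used lies at the end of the annotated gene for Csn1s1, and 4 and 5 bases inside it for Csn2 and Wap. For Lalba it lies 251 bases inside, so that the window falls within the annotated gene and is not described.
Csn2, chr5:87699426-87699675, minus strand: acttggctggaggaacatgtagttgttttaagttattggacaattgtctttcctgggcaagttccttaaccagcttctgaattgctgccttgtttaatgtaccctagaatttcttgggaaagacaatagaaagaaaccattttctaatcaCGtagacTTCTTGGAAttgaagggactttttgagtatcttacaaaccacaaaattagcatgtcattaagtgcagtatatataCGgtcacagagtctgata
Csn1s1, chr5:87665958-87666207, plus strand: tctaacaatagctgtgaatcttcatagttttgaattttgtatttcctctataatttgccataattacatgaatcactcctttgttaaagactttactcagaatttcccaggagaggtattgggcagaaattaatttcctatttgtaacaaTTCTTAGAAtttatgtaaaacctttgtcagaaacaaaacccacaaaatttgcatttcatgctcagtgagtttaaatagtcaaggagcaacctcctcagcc
Wap, chr11:6638650-6638899, minus strand: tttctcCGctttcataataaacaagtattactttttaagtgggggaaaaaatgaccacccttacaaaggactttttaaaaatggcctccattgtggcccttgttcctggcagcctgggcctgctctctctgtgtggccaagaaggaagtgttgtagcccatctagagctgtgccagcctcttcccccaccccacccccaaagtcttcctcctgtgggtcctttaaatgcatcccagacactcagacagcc
These promoters held few CpG, namely 2 in Csn2, 0 in Csn1s1, 1 in Wap, and 0 in Csn1s2a, which is not printed. Over 32841 promoters of the table the median was 6 CpG per 250 bases, and 29.0% held 2 or fewer. TTCNNNGAA, which reads the same on both strands, occurred once in Csn2 as TTCTTGGAA, beginning 93 bases before the start, and once in Csn1s1 as TTCTTAGAA, beginning 100 bases before it. It was not found in these windows of Csn1s2a and Wap, and 7.02% of all promoters held it. The bin values below average over 300 kb and do not resolve the promoters.

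The bins with caseins and Lalba held more 5hmC than most of the genome, and the Wap bin did not. Over the 13 tumours the casein bin averaged 4.92% ± 1.46 (SD, n = 13), above 89.5% of all bins, and the Lalba bin 4.75% ± 0.947, above 87.6%. The Csn3 bin averaged 4.27% ± 0.743, above 81.3% of bins, and the Wap bin 1.93% ± 0.615, above 42.5%. The casein, Csn3, Wap and Lalba bins overlapped 6, 5, 4 and 11 protein-coding genes, against a median of 2 over all bins. The levels were not compared with bins of like gene content. No tumour was listed at 0 in any of these bins. The mean over all bins of a tumour, its genome-wide mean, ran from 2.18% to 3.17%. Csn3 and Lalba lay above it in 13 of 13 tumours, the casein bin in 12 and the Wap bin in 2. Relative to that mean, the casein bin differed by 2.32 percentage points (SE 0.352, p = 0.00048828), the Lalba bin by 2.14 (SE 0.250, p = 0.00024414), the Csn3 bin by 1.66 (SE 0.241, p = 0.00024414) and the Wap bin by -0.674 (SE 0.153, p = 0.00171), by exact two-sided permutation of signs over tumours. The smallest p that 13 tumours allow is 0.00024414. These 4 tests were not adjusted. No share of all bins passing this test is given, so the p say only that each difference was steady over tumours. The sign was the same within both models, with 2.48 percentage points in the 7 tumours of the Phd2 model and 2.13 in the 6 of the sFlk1 model for the casein bin, 2.18 and 2.10 for Lalba, 1.54 and 1.80 for Csn3, and -0.636 and -0.719 for Wap. In the Phd2 model alone the Wap difference did not pass (exact permutation p = 0.0625), nor did that of the casein bin in the sFlk1 model (exact permutation p = 0.0625). For Wap the result rests on the scale. As log2(percent + 0.5) against the mean of log2 values, the difference was -0.0972 (exact permutation p = 0.312).

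**Figure D1:**
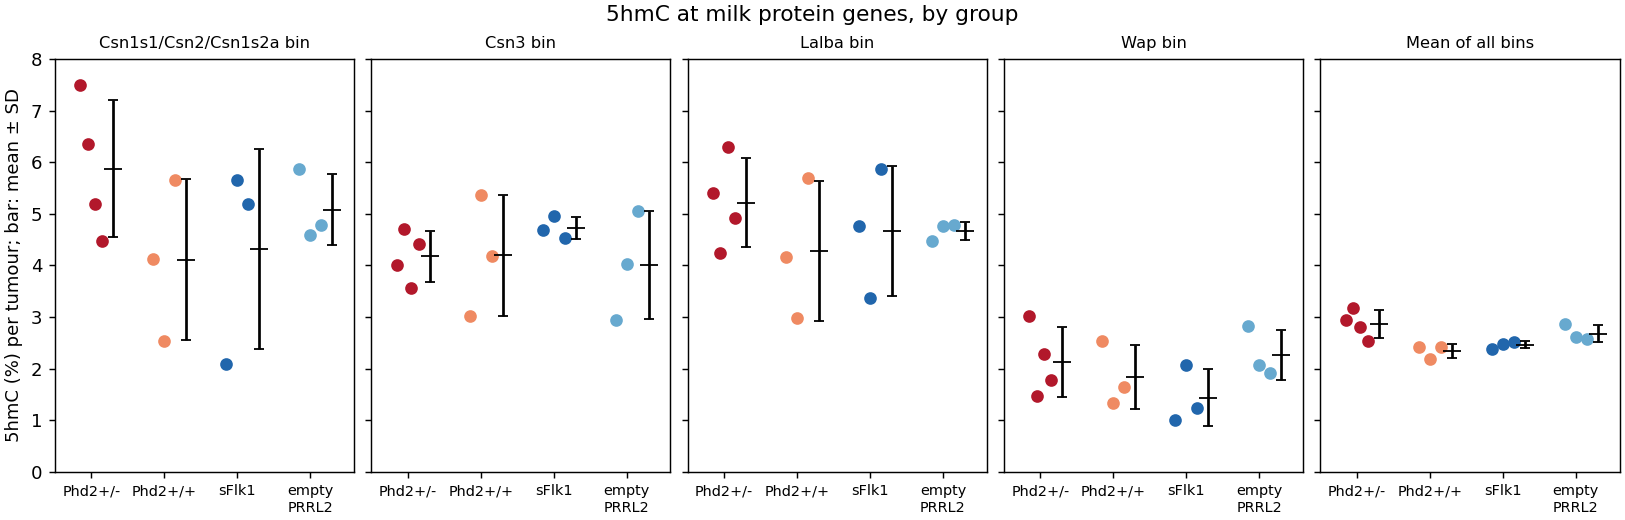
5hmC in percent (vertical axis) of each tumour (points) in the 4 bins that hold milk protein genes and in the mean of all bins, by group, with the group mean and SD as bars. The Wap bin averages 1.93% and lies below the other 3 bins, and within each of the 4 bins the groups of a model overlap. In the mean of all bins they do not overlap. There the lowest Phd2+/- tumour is at 2.54% and the highest Phd2+/+ tumour at 2.42%. The highest sFlk1 tumour is at 2.52% and the lowest empty-vector tumour at 2.57%.

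Within a tumour the bins had a partial order. The Wap bin was the lowest of the 4 in all 13 tumours, 2.99 percentage points under the casein bin, 2.81 under Lalba and 2.33 under Csn3 (exact sign permutation, each p adjusted over the 6 pairs of bins = 0.00048828). The other bins did not separate beyond the spread between tumours. The casein bin was higher than Lalba in 5 of 13 tumours (mean difference 0.177, SD 1.44, adjusted p = 0.666) and higher than Csn3 in 10 of 13 (0.657, SD 1.82, adjusted p = 0.282). Lalba was higher than Csn3 in 9 of 13 (0.480, SD 1.39, adjusted p = 0.282). In percentage points the casein bin also varied most. Its SD within groups was 1.44 percentage points, larger than in 96.3% of all bins, against 1.01 for Lalba, 0.798 for Csn3, 0.602 for Wap and a median of 0.701 over all bins. As a percentage of the mean, the SD was 31.1% for Wap, 29.2% for the casein bin, 21.3% for Lalba and 18.7% for Csn3. Its values ran from 2.09% in sFlk1 tumour 1 to 7.50% in Phd2+/- tumour 1. The Csn3 bin beside it ran only from 2.95% in empty-vector tumour 1 to 5.36% in Phd2+/+ tumour 2.

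**Figure D2:**
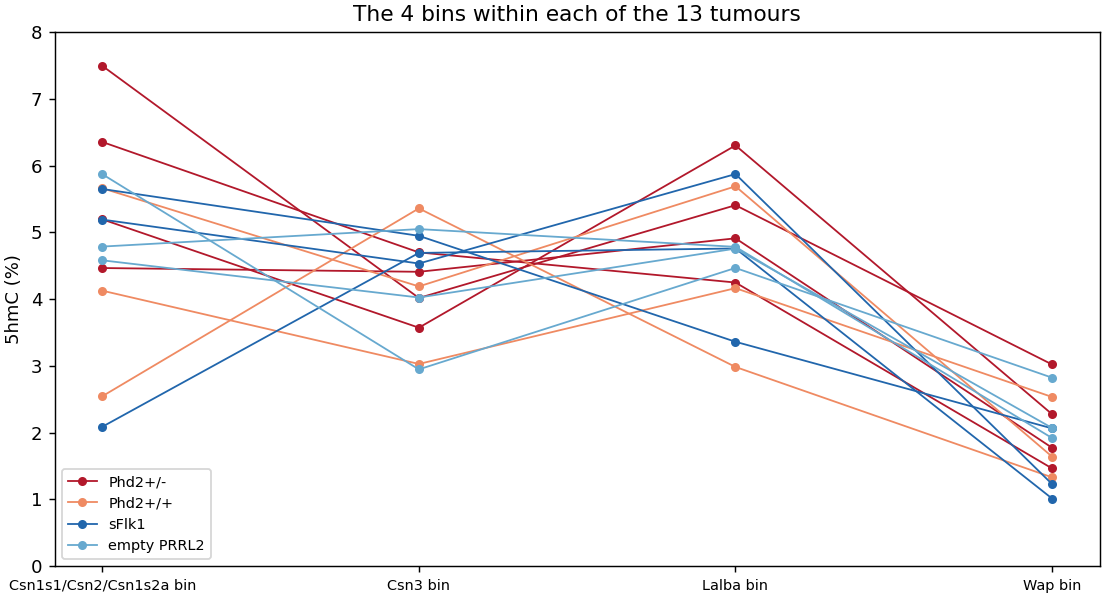
5hmC in percent (vertical axis) of the 4 bins (horizontal axis), with 1 line per tumour coloured by group. The Wap bin is the lowest point of all 13 lines, while the lines cross between the casein, Csn3 and Lalba bins.

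Although the casein and Csn3 bins adjoin, no relation between them was detected over tumours (Pearson r = -0.298, permutation p = 0.326; Spearman rho = -0.269, p = 0.375; n = 13, and r = 0.0973 without the 2 tumours farthest from the median of the casein bin). The relation with the smallest p among the 6 pairs was between the Csn3 and Wap bins (r = -0.699, permutation p = 0.00861, adjusted p = 0.0517; rho = -0.703, p = 0.0097, adjusted p = 0.0582), and it did not pass after adjustment over the pairs. Without the 2 tumours farthest from the median of Csn3 it was r = -0.530, and after removal of the group means r = -0.654. For the casein and Wap bins r was 0.591 (permutation p = 0.0315, adjusted p = 0.0946) and rho 0.434 (p = 0.141, adjusted p = 0.423), with r = 0.292 without 2 tumours. For the 3 pairs that involve Lalba, r ran from -0.351 to 0.343, with adjusted p of 0.378 or more.

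Along chromosome 5, 5hmC stepped up at the casein genes. The 3 bins before the casein bin hold genes of the Ugt2 family, enzymes of glucuronidation, with Tmprss11e and Ythdc1, and the sulfotransferase genes Sult1b1, Sult1d1 and Sult1e1. They averaged 2.39%, 1.01% and, for the bin with the sulfotransferases next to the caseins, 2.32% ± 0.663 (SD, n = 13). The casein bin then held 4.92%, the Csn3 bin 4.27%, the bin of Prol1, Amtn, Ambn and Enam, genes of saliva and enamel proteins, 3.77% ± 1.29, and the bin of Jchain and its neighbours 4.16% ± 1.01, before the level dropped to 2.57% ± 0.704 at Slc4a4. Set against the 3 bins on each side, Csn3 left out, the casein bin was 2.20 percentage points higher (SD 1.34) and was higher in 12 of 13 tumours (exact sign permutation p = 0.000732). The Csn3 bin, with the casein bin left out of its flanks, was 1.50 higher (SD 0.863), again in 12 of 13 tumours (exact sign permutation p = 0.00048828). These flanks share bins, so the results overlap. No share of all bins that differ from their flanks is given, so the p do not set these bins apart from others. Within the Phd2 model the casein and Csn3 differences were 2.41 and 1.44 (exact permutation p = 0.0156 for both, the smallest that 7 tumours allow) and within the sFlk1 model 1.95 and 1.58 (exact p = 0.0625 for both). The contrast was mostly with the side of the Ugt2 and Sult1 genes, where the casein bin differed by 3.02 (exact permutation p = 0.00048828) and the Csn3 bin by 2.60 (p = 0.00024414 by exact permutation). On the other side the differences were 0.962 (exact permutation p = 0.0159) and 0.769 (exact permutation p = 0.0286). Against the single bin after it, Csn3 differed by 0.50 (exact permutation p = 0.287). The tumour that went the other way for the casein bin was sFlk1 tumour 1, at 0.669 percentage points below its flanks (-0.669).

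**Figure D3:**
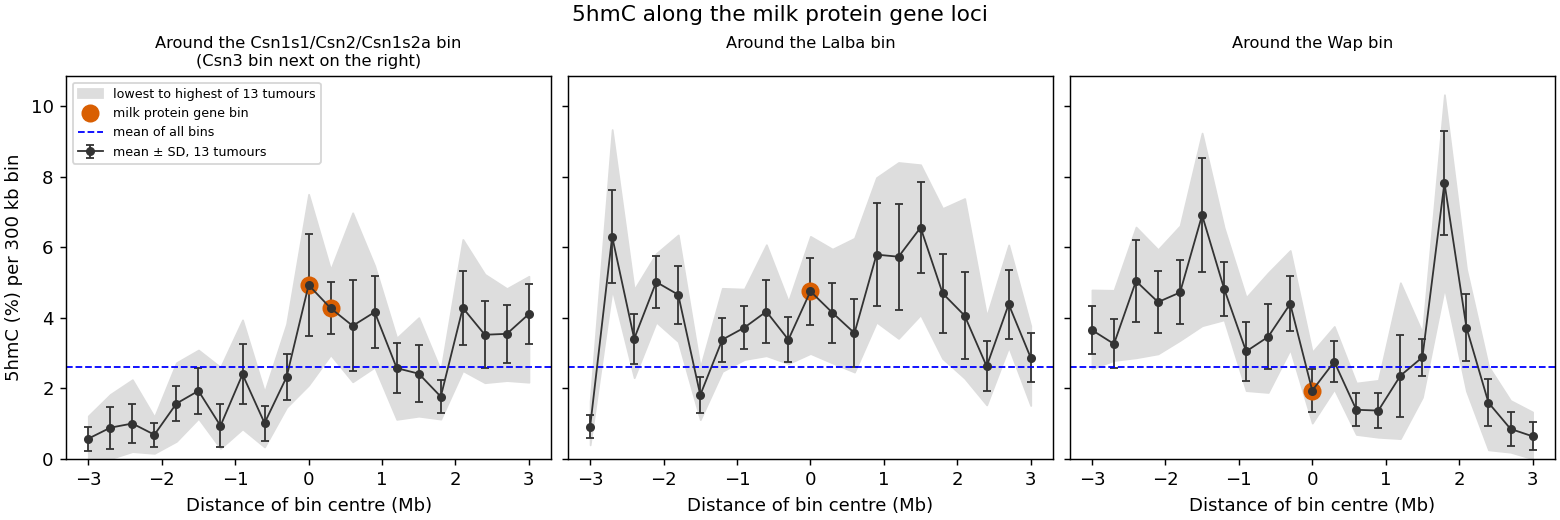
5hmC in percent of single 300 kb bins (vertical axis) up to 3.0 Mb to each side (horizontal axis, distance in Mb) of the casein bin, the Lalba bin and the Wap bin. Black points and bars are the mean and SD of 13 tumours, grey the range, orange the bins of milk protein genes and the dashed line the mean of all bins. The casein bin is at 4.92%, against 2.32% in the bin before it, while the Wap bin lies at the foot of a fall from 4.39% in the bin before it.

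The Wap and Lalba bins were set against their flanks in the same way. The Wap bin held less than its flanks by -0.799 percentage points (SD 0.685), being higher in 2 of 13 tumours (exact sign permutation p = 0.00171). The contrast was with the side of Ogdh, Zmiz2 and Ppia, where the adjoining bin held 4.39% ± 0.778. Against the 3 bins on that side the Wap bin differed by -1.70 (exact permutation p = 0.00024414), and against the 3 on the other, with Adcy1, Igfbp1 and Igfbp3, by 0.0989 (exact permutation p = 0.599). Within the Phd2 model the difference was -0.902 (exact permutation p = 0.0312) and within the sFlk1 model -0.679 (exact permutation p = 0.0938). The Lalba bin had flanks that were themselves above the genome-wide mean, at 4.12% ± 0.509, and differed from them by 0.622 (SD 1.04, higher in 9 of 13 tumours, exact sign permutation p = 0.0540), which did not pass. Without Phd2+/- tumour 2, Phd2+/+ tumour 2, sFlk1 tumour 2 or empty-vector tumour 1 it did, with exact permutation p of 0.0298 to 0.0420 and differences of 0.704 to 0.735. With 1 or 10 bins on each side the exact permutation p was 0.0112 or 0.0225. Within the models the Lalba differences were 0.556 (Phd2, exact permutation p = 0.234) and 0.699 (sFlk1, exact permutation p = 0.188).

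The comparison of Phd2+/- with Phd2+/+ tumours asks whether 5hmC in the 4 bins differs in tumours that the labels describe as better vascularised and oxygenated. The casein bin held 7.50%, 6.36%, 5.20% and 4.47% in the Phd2+/- tumours and 4.13%, 2.54% and 5.66% in the Phd2+/+ tumours. Tumours 1 and 2 of the Phd2+/- group lay above all Phd2+/+ tumours, tumours 3 and 4 lay below Phd2+/+ tumour 3, and the groups overlapped. Phd2+/- tumours averaged 5.88% ± 1.33 (SD, n = 4) and Phd2+/+ tumours 4.11% ± 1.56 (SD, n = 3), a difference of 1.77 percentage points (limma SE 0.909, 95% interval -0.0993 to 3.63), which did not pass (limma unadjusted p = 0.0625, adjusted over all bins 0.476, exact two-sided permutation p = 0.171). The difference was larger than in 93.5% of all bins, whose median difference was 0.385. The level of the casein bin was above 89.5% of bins and its SD within groups above 96.3%. Bins of like level or spread were not compared. The mean of all bins was itself 2.87% ± 0.265 in Phd2+/- tumours and 2.34% ± 0.137 in Phd2+/+ tumours, without overlap. Its part in the difference was not tested beyond the scaling. Without Phd2+/+ tumour 2 the casein difference was 0.984, and with each tumour scaled to the same genome-wide mean 0.785. Divided by the mean of all bins in the same tumour, the casein bin held 2.04 ± 0.351 times that mean in Phd2+/- tumours and 1.74 ± 0.592 times in Phd2+/+ tumours (exact permutation p = 0.40).

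At Lalba the Phd2+/- tumours held 5.41%, 4.25%, 6.30% and 4.91% and the Phd2+/+ tumours 4.16%, 2.98% and 5.69%. The groups overlapped, with 1 Phd2+/- tumour above all Phd2+/+ tumours (5.22% ± 0.866 and 4.28% ± 1.36, difference 0.938, limma 95% interval -0.653 to 2.53, adjusted p = 0.659, exact permutation p = 0.314). The Lalba difference was 0.290 without Phd2+/+ tumour 2, 0.576 without Phd2+/- tumour 3, 1.64 without Phd2+/+ tumour 3 and 0.0617 after scaling to the genome-wide mean. Divided by the mean of all bins, Lalba was at 1.84 ± 0.375 and 1.82 ± 0.503 (exact permutation p = 0.914). The Wap bin held 3.02%, 1.46%, 2.27% and 1.77% in Phd2+/- tumours and 2.53%, 1.33% and 1.64% in Phd2+/+ tumours. These overlapped too, with a difference of 0.299 (limma 95% interval -0.747 to 1.34, adjusted p = 0.848, exact permutation p = 0.571). The Wap difference was 0.00279 without Phd2+/- tumour 1, 0.0464 without Phd2+/+ tumour 2, 0.522 without Phd2+/- tumour 2 and 0.649 without Phd2+/+ tumour 1. Scaled to the genome-wide mean it had the other sign, -0.0762. The Csn3 bin held 4.02%, 4.70%, 3.57% and 4.41% in Phd2+/- tumours, all within the 3.03%, 5.36% and 4.19% of Phd2+/+ tumours (difference -0.0182, limma 95% interval -1.44 to 1.41, adjusted p = 0.997, exact permutation p = 1). Its sign turned when Phd2+/+ tumour 2 (0.566), Phd2+/- tumour 3 (0.183) or Phd2+/- tumour 1 (0.0344) was left out, and it was -0.601 without Phd2+/+ tumour 1. Scaled to the genome-wide mean the Csn3 difference was -0.915. Thus 0 of the 4 bins passed with limma, where the share among all bins was 0.0%, and 0 of 4 had an unadjusted limma p under 0.05, against 10.4% of all bins in the higher and 0.443% in the lower direction. The groups did not separate in any of the 4, against 11.0% of all bins that were higher without overlap and 0.933% that were lower. The mean was higher in 3 of 4 bins and lower in 1, against 75.1% and 24.9% of all bins. The share higher was 46.8% after scaling to the genome-wide mean, which moved the median difference of all bins to -0.0358 percentage points and left 2 of the 4 bins higher and 2 lower.

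**Figure D4:**
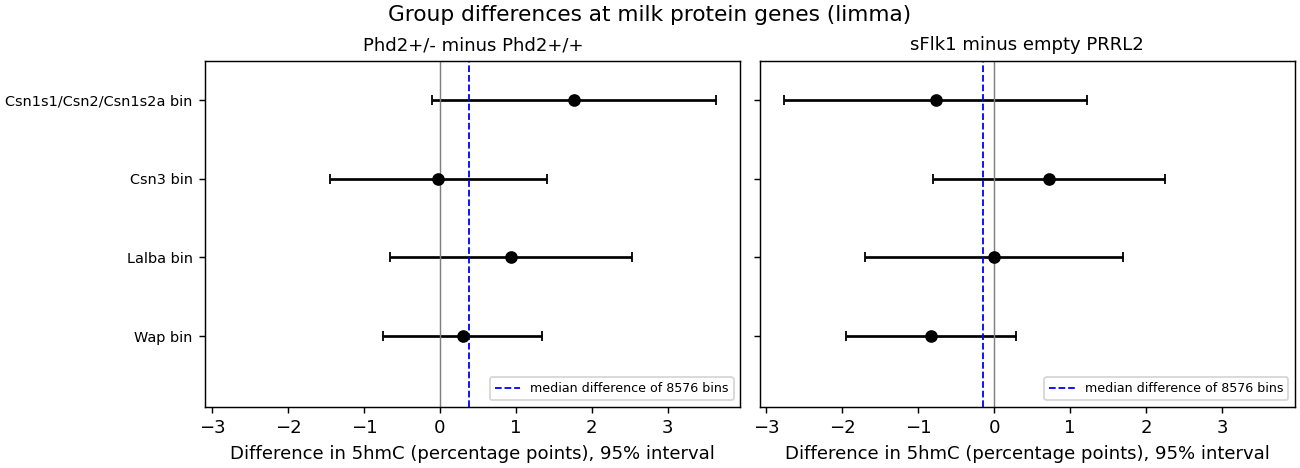
Difference in 5hmC in percentage points (horizontal axis) of the 4 bins between Phd2+/- and Phd2+/+ tumours (left) and between sFlk1 and empty PRRL2 tumours (right), with limma 95% intervals. The dashed line is the median difference of all 8576 bins (0.385 and -0.146), and all 8 intervals include 0.

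The sFlk1 and empty-vector tumours address the opposite change, towards hypoxia. With 3 against 3 tumours the exact test cannot go below 0.10. The mean of all bins was itself 2.46% ± 0.0670 in sFlk1 tumours and 2.68% ± 0.158 in empty-vector tumours, without overlap. Its part in the differences of single bins was not tested beyond the scaling. The casein bin held 2.09%, 5.65% and 5.19% in the sFlk1 tumours and 5.87%, 4.58% and 4.79% in the empty-vector tumours. sFlk1 tumour 1 stood far below the other sFlk1 tumours, which lay within the empty-vector range. The difference was -0.771 (means 4.31% ± 1.94 and 5.08% ± 0.694, SD, n = 3 each, limma 95% interval -2.77 to 1.23, adjusted p = 0.889, exact permutation p = 0.80), and 0.341 without sFlk1 tumour 1. It was -1.44 and -1.21 without sFlk1 tumours 2 and 3, -0.375 without empty-vector tumour 1 and -0.396 after scaling to the genome-wide mean. That tumour was also the lowest of the 13 at Wap but not at Lalba or Csn3, and its genome-wide mean of 2.39% was within the range of the others.

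The Wap bin held 1.01%, 2.06% and 1.23% in sFlk1 tumours and 2.82%, 2.07% and 1.92% in empty-vector tumours, so that sFlk1 tumours 1 and 3 lay below all empty-vector tumours and sFlk1 tumour 2 between them. The difference was -0.836 (limma SE 0.544, 95% interval -1.95 to 0.282, adjusted p = 0.761, exact permutation p = 0.20). Scaled to the genome-wide mean it was -0.681. At Csn3 the sign was opposite. The sFlk1 tumours held 4.69%, 4.95% and 4.53%, close together and within the 2.95%, 4.02% and 5.05% of the empty-vector tumours (difference 0.718, limma 95% interval -0.807 to 2.24, adjusted p = 0.862, exact permutation p = 0.40). The Csn3 difference was 0.188 without empty-vector tumour 1, 1.24 without empty-vector tumour 3 and 1.07 after scaling. The Lalba bin held 4.76%, 3.36% and 5.87% in sFlk1 tumours, spread around 4.47%, 4.76% and 4.78% in empty-vector tumours (difference -0.00448, limma 95% interval -1.71 to 1.70, adjusted p = 1, exact permutation p = 1). Its sign turned when sFlk1 tumour 2 (0.648) or empty-vector tumour 2 (0.0394) or 3 (0.0526) was left out, and after scaling to the genome-wide mean (0.381). Again 0 of 4 bins passed with limma, against 0.0117% of all bins, and 0 had an unadjusted limma p under 0.05, against 5.06% lower and 2.12% higher of all bins. The mean was lower in 3 of 4 bins and higher in 1, against 59.5% and 40.3% of all bins. After scaling, 48.1% of all bins were lower, as were 2 of the 4. The groups separated at 0 of the 4, against 8.24% of all bins that were lower and 3.43% that were higher without overlap.

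For 0 of the 4 bins did a test of the difference between the 2 models pass. The change between Phd2+/- and Phd2+/+ minus the change between sFlk1 and empty vector was 2.54 percentage points at the casein bin (limma SE 1.33, 95% interval -0.194 to 5.27, adjusted p = 0.421), 1.13 at Wap (adjusted p = 0.520 with limma), 0.943 at Lalba (limma adjusted p = 0.744) and -0.736 at Csn3 (limma adjusted p = 0.777). Of all bins 0.0117% passed this test. By the labels the 2 comparisons run in opposite directions of oxygenation, so differences of opposite sign add up in this value. A large value can therefore arise where both models change alike with oxygenation. Scaled to the genome-wide mean the casein value was 1.18, Wap 0.604, Lalba -0.319 and Csn3 -1.98. Without sFlk1 tumour 1 the casein value was 1.43. Without Phd2+/+ tumour 2 or empty-vector tumour 1 the Csn3 value was -0.153 or -0.206, and without Phd2+/+ tumour 1 or empty-vector tumour 3 it was -1.32 or -1.26. The Lalba value was 0.291 without sFlk1 tumour 2, 0.295 without Phd2+/+ tumour 2, 0.581 without Phd2+/- tumour 3, 1.55 without sFlk1 tumour 3 and 1.65 without Phd2+/+ tumour 3.

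Genes that act with the milk proteins were described from 2 lists. The 18 genes of lactation signalling and transcription shared 17 bins, as Stat5a and Stat5b lie together, and had a median level of 5.05%, with 14 of 18 above the genome-wide mean, against a median of 2.36% over all bins and 45.7% of them above that mean. The highest were Nfib, a nuclear factor I gene (11.8% ± 2.13, SD, n = 13), and Elf5, the epithelial factor (7.40% ± 0.859). The lowest were Erbb4, a neuregulin receptor gene (1.07% ± 0.670), and Pgr, the progesterone receptor gene (1.21% ± 0.898). The bin of Stat5a and Stat5b held 6.54% ± 1.36, that of the prolactin receptor gene Prlr 5.04% ± 1.34 and that of Jak2 5.05% ± 1.23. Of the 18 genes for other products and steps of milk secretion, 13 lay above the genome-wide mean and the median was 3.18%. The levels ran from 0.665% ± 0.391 at Glycam1, a milk mucin gene, and 1.72% ± 0.570 at the calcium pump gene Atp2b2 to 5.73% ± 0.970 at Xdh, needed for milk fat secretion, and 5.79% ± 1.47 at the aquaporin gene Aqp5. The Aqp5 bin is also the third bin after Lalba, and its water channel belongs as much to other glands. Levels of bins depend on their other genes and sequence too, and a gene longer than a bin is read only in part. The lists were chosen with earlier results of these data known.

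**Figure D5:**
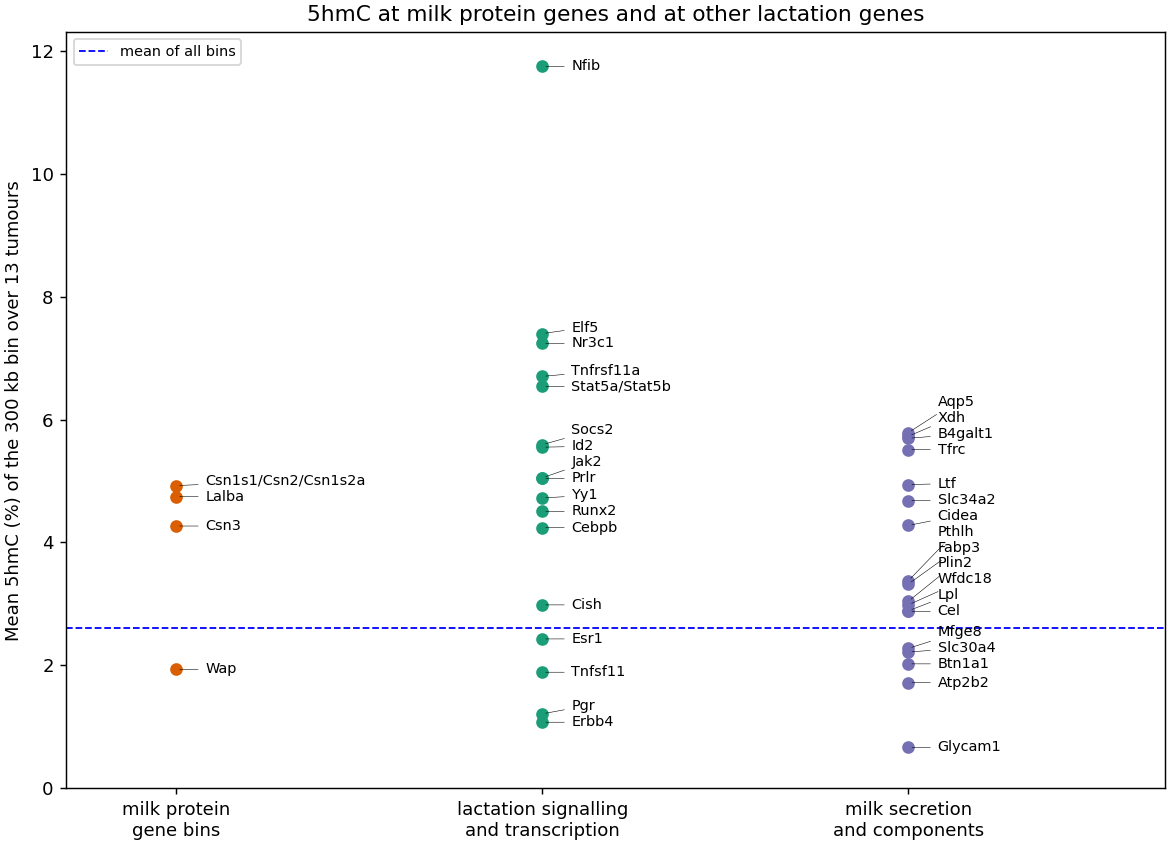
Mean 5hmC in percent over 13 tumours (vertical axis) of the bins of the milk protein genes and of 2 lists of other lactation genes (columns), 1 point per bin, with the dashed line at the mean of all bins. The casein, Csn3 and Lalba bins lie at 4.27% to 4.92%, a range that also holds genes of both lists, while Wap lies at 1.93%, also near genes of both lists.

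With limma over all bins 0 of these 36 genes passed in either comparison. Between Phd2+/- and Phd2+/+ tumours the mean was higher for 15 of 18 signalling genes (median difference 1.37) and 17 of 18 secretion genes (0.667), against 75.1% of all bins and a median of 0.385. Median levels of the lists (5.05% and 3.18%) were above that of all bins (2.36%), and bins of like level were not compared. The lists were not scaled to the genome-wide mean, which brought the share of all bins higher to 46.8%. Stat5a and Stat5b, in 1 bin, count as 2 genes. These limits hold for both comparisons. An unadjusted limma p under 0.05 occurred for 5 of the 36, all higher, against 10.4% of all bins. The smallest in the signalling list were at Socs2, a feedback inhibitor of cytokine receptors (7.35% ± 1.09 and 4.73% ± 0.505, limma adjusted p = 0.324), and Id2, a regulator of alveolar growth (6.05% ± 2.28 and 3.99% ± 0.824, limma adjusted p = 0.437). In the secretion list they were at Aqp5 (7.54% ± 0.555 and 4.40% ± 0.549, limma adjusted p = 0.324) and at Slc34a2, a phosphate transporter gene (5.90% ± 1.71 and 3.77% ± 0.663, limma adjusted p = 0.390). Between sFlk1 and empty-vector tumours the mean was lower for 16 of 18 signalling genes (median difference -0.865) and 12 of 18 secretion genes (-0.339), against 59.5% of all bins and a median of -0.146. An unadjusted limma p under 0.05 occurred for 3 of the 36, all lower, against 5.06% of all bins. The smallest p in the signalling list were at Pgr (0.737% ± 0.0388 and 2.09% ± 1.64, limma adjusted p = 0.626) and Tnfsf11, the RANKL gene (1.65% ± 0.302 and 2.61% ± 0.528, limma adjusted p = 0.70). In the secretion list they were at Ltf, the lactoferrin gene (3.34% ± 0.638 and 5.07% ± 0.177, limma adjusted p = 0.643), and at Lpl, the lipoprotein lipase gene (1.73% ± 0.582 and 3.23% ± 0.991, limma adjusted p = 0.686). On chromosome 5, 11 of 13 listed neighbours of the caseins matched, in 4 bins of which 2 are the casein and Csn3 bins, and 0 passed.

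Some bins elsewhere followed the same course over the 13 tumours, given here as a description, since the best of 7337 bins will be high in any case. The casein bin was most like the bins of Runx2 on chromosome 17 (Pearson r = 0.892), of Ahi1 and Myb on chromosome 10 (r = 0.887) and of Lipc on chromosome 9 (r = 0.872), and 42 bins had r above 0.80. The Lalba bin was most like a bin on chromosome 2 with Cel, the bile salt-stimulated lipase gene, and Ralgds and Tsc1 (r = 0.861), that of Zfp521 (r = 0.828) and that of Lypd6 and Mmadhc (r = 0.822). The Wap bin was most like the bins of Foxp3 and Tfe3 on X (r = 0.90), of Lin9 and Lefty2 on chromosome 1 (r = 0.891) and of Slc24a4 on chromosome 12 (r = 0.878), with 16 bins above 0.80. For Csn3 the highest r was 0.758, with a bin without protein-coding genes on chromosome 10, and 0 bins passed 0.80. The points of each r share the 13 libraries and their genome-wide level.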

How the data were processed

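DNA of 13 tumours was extracted in buffers with 200 µM DFO, an iron chelator, and TAB-converted, per the labels' protocols. The authors deposited 1 table of 5hmC percent per 300 kb bin and tumour. The submitters' processing notes name Bismark 0.13.1 and the build mm9. Bins end at GRCm38 chromosome lengths (chromosome 1 at 195471971), so GRCm38 was used. How calls were pooled within a bin, coverage minimums and spike-in rates were not stated in what was used here, so depth is unknown, no counting interval can be given, and a bin with few calls weighs as much as any other.

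Groups came from sample titles. Nothing beyond 1 tumour per titled mouse is known of the replicates. Of 9097 bins, 8576 were kept (autosomes and X, not 0 in all tumours). All were fitted on percentages with limma 3.58.1 (R 4.3.3), 13 tumours in 1 fit with 4 group means, a trend, and Benjamini-Hochberg adjustment at 0.05. This step was tested on simulated data. For single bins, all arrangements of tumours were enumerated (exact permutation, two-sided, on the difference of means), whose smallest p is 0.0286 for 4 against 3. Bins of 1 tumour were compared by exact permutation of signs, and correlations by 99999 permutations. Genes were placed, from RefSeq annotation of GRCm38.p6, in the bin holding the largest part of their body, the first where bins tied. For a gene longer than a bin the value covers only that part. The genes named are the members, genes in their bins and flanks, and genes of the bins most like each member bin. From 2 lists they are the 2 highest, 2 lowest and 2 with the smallest p in each comparison. Stat5a, Stat5b, Prlr and Jak2 were added after their values were seen. Members and lists were chosen with earlier results of these data known. Alternatives are given in the closing section.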

Additional observations from a re-analysis of the deposited data

How the results depend on the processing

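The 4 bins passed in 0 group comparisons under any alternative, but several signs turned. In log2(percent + 0.5), arcsine or with sample weights, Csn3 between Phd2+/- and Phd2+/+ was 0.0190, 0.000606 and 0.0448. Scaled to the genome-wide mean, Wap in Phd2 was -0.0762, Lalba in sFlk1 0.381, and the Lalba difference between models -0.319. In 900 kb windows, which by construction join the casein and Csn3 bins, the casein bin in sFlk1 was 0.140, and Csn3 0.887 in Phd2, -0.364 in sFlk1 and 1.25 between models. With a tumour left out, the casein bin in sFlk1 ran from -1.44 to 0.341, Csn3 in Phd2 from -0.601 to 0.566 and Lalba in sFlk1 from -0.609 to 0.648. The count of bins called ran from 0 to 1 (Phd2), 1 to 4 (sFlk1) and 1 to 3 (between models). It was 1 in Phd2 with log2 or the replicate block, 0 in sFlk1 in 900 kb windows, and between models 2 (log2, arcsine or 900 kb windows), 0 (bins at 0 in all tumours kept, or only bins above 0 in all) or 3 (no trend). The cause was not tested.

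Same-numbered tumours did not deviate together (r from -0.0934 to -0.00429 over 6 pairs). Of the 7 Phd2+/- and sFlk1 tumours 0 correlated best with their own number, but Phd2+/- tumour 4 has no same-numbered control and could not. The titles' numbers were not used as pairs in the main fit. This check cannot show whether same-numbered mice were related or handled together. With the replicate block the casein difference in Phd2 was 2.24 (limma adjusted p = 0.391), and 0 calls on the 4 bins changed. With 2 groups in the fit no difference between models could be fitted.

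Against flanks, Csn3 was 0.50 with only the single bin after it, since the bin before it is the casein bin and was left out. Lalba was 0.991 with 1 bin per side, 0.693 with 10, 0.202 in log2 and, without a tumour, 0.488 to 0.735. Added after the data were seen were flanks on 1 side (Wap 0.0989 after, Lalba 0.992 before) and single models. In the sFlk1 model the flank differences were -0.679 (Wap), 1.95 (casein) and 1.58 (Csn3), the casein bin minus the genome-wide mean 2.13, and the casein, Lalba and Csn3 bins minus Wap 2.84, 2.82 and 2.51, none passing. For the last 3 the exact p was 0.0312, the smallest that 6 tumours allow, and 0.0625 after adjustment over the 6 pairs. In the Phd2 model Wap minus the genome-wide mean was -0.636 (exact p = 0.0625, where 7 tumours allow 0.0156), and in log2 over all tumours -0.0972. Depth is unknown, so noise from few calls per bin could not be separated from differences between tumours.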
